A study of Mus musculus with 6 samples.

Results

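Respiratory complex I takes electrons from NADH, passes them along a flavin and a chain of iron-sulfur clusters to ubiquinone, and pumps protons across the inner mitochondrial membrane. It has a matrix arm, where NADH is oxidised and ubiquinone reduced, and a membrane arm that pumps protons; some core subunits are encoded by mitochondrial DNA, and the others, with all accessory subunits, by nuclear genes named Nduf. Long-term haematopoietic stem cells are largely quiescent and are known for a low use of oxidative phosphorylation at rest. The genes described here are those whose symbol starts with Nduf followed by a, ab, b, c, s or v and a number, with the assembly factors (Ndufaf) left out. Under this rule 36 of the 18193 genes with a probe set of their own were found, carried by 78 probe sets, and the probe set with the highest mean over 6 arrays stood for each gene.

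The stem cells were sorted from mouse bone marrow as lineage-negative, Sca-1+, c-kit+, CD48-, CD150+ cells, from mice of wildtype (Irf8+/+, 3 samples) or knockout (Irf8-/-, 3 samples) genotype. Irf8 encodes an interferon regulatory factor of the monocyte and dendritic cell lineages. All samples are labelled as taken at 3 weeks and as untreated biological replicates; no animal, strain or pooling is named, so p-values measure the spread between these samples only. Amplified total RNA was hybridised to Affymetrix Mouse Genome 430 2.0 arrays, and every value below is a log2 array value as deposited. Such values compare arrays for 1 probe set and do not rank 1 gene against another.

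The targeted gene did not separate the groups. The brighter of 2 Irf8 probe sets read 4.98, 6.43 and 5.16 in wildtype and 4.91, 6.39 and 6.496 in knockout (difference 0.41, adjusted p = 0.92 in limma). No source used here places these probes relative to the deleted part, so they do not check the labels, which the group names follow. Median array values lay between 4.85 and 4.96. Knockout replicate 3 stood apart: the mean level of 13 neutrophil genes was 11.16 there, 8.56 to 8.76 in the other knockout arrays and 6.70 to 7.76 in wildtype. Of these 13 genes 12 had a higher mean in knockout, beside 10293 of all 18193 genes. For 5 of the 13 the groups did not overlap, all higher in knockout, where 6.67% of all genes were higher without overlap. The median of 7 stem cell genes, measured from the wildtype mean, stood at 0.59, -0.75 and -1.27 in knockout replicates 1, 2 and 3. Kit, which encodes the sorted c-kit, read 9.38 to 9.76 in wildtype and 10.46, 8.93 and 8.09 in knockout, and Slamf1, which encodes CD150, 5.97 to 9.11 and 9.02, 8.49 and 4.71. Cd48, whose protein was sorted against, read 3.12 to 4.54 in wildtype but 7.60, 9.42 and 3.55 in knockout. Fewer cells of a type and less RNA per cell cannot be told apart in such bulk samples.

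Complex I genes were expressed in both groups, and as a set they differed little between them. Of the 36 genes, 35 had a mean above the median gene level of 5.81. The median difference, knockout minus wildtype, was -0.21 on the log2 scale, with 25 genes below 0 and 11 above, beside a median of 0.07 and 43.4% below 0 over all 18193 genes, and -0.05 and 52.9% over the 9096 genes above the median level. In limma with Benjamini-Hochberg adjustment over all genes, 0 of the 36 passed an adjusted p of 0.05, where 0% of all genes passed; the adjusted p of the members ran from 0.887 to 0.98. At an unadjusted p under 0.05 there was 1 member, Ndufa4, and 4.84% of all genes. The median moved to -0.04 without knockout replicate 3, beside 0.0027 over all genes, and lay between -0.14 and -0.24 without any other single array. Without that array 8 members were lower without overlap, where 10.0% of all genes were, and 3 had an unadjusted p under 0.05, where 5.01% of all genes had. The part of the neutrophil genes in these moves was not tested.

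**Figure D1:**
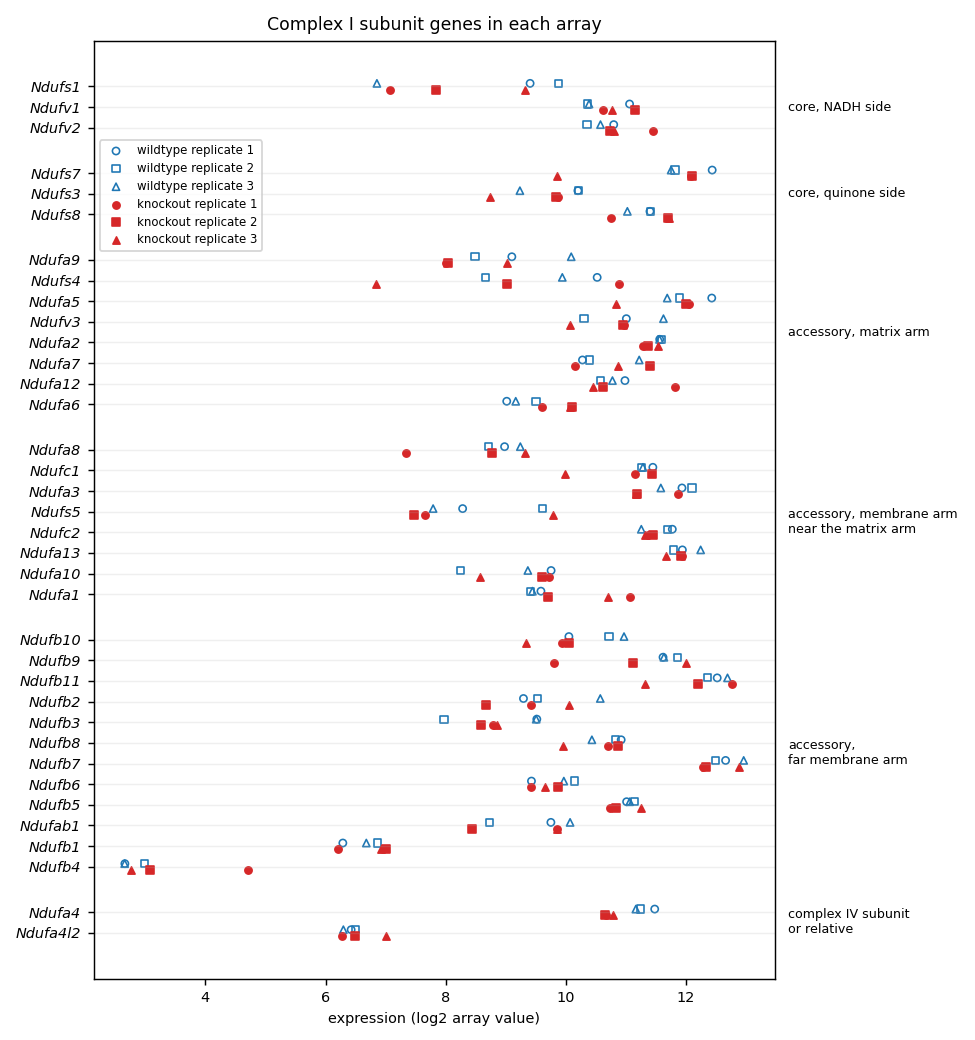
Log2 array value of each of the 36 complex I subunit genes (grouped by place in the complex) in the 3 wildtype arrays (open symbols) and the 3 knockout arrays (filled symbols). Groups overlap for 31 genes; Ndufa4, Ndufa2 and Ndufb10 are lower in all knockout arrays, and Ndufa1 and Ndufa6 higher.

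The 2 groups did not overlap for 5 members. Knockout was lower for 3 of them, Ndufa4, Ndufa2 and Ndufb10, where 4.25% of all genes and 6.3% of genes above the median level had that pattern. Knockout was higher for Ndufa1 and Ndufa6, against 6.67% of all genes and 4.89% of those above the median level. Out of 36 members these counts are close to the background. With quantile normalization, or with each array centred on its median, Ndufa2 and Ndufb10 overlapped and Ndufa4 alone was lower in every knockout array.

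Ndufa4 was named as a complex I subunit and is now placed in complex IV, cytochrome c oxidase. It read 11.48, 11.24 and 11.16 in wildtype and 10.66, 10.65 and 10.78 in knockout. Every knockout array lay under the lowest wildtype array, and both groups were tight. The difference was -0.60 (SE 0.21, 95% interval -1.10 to -0.10, unadjusted p = 0.0261, adjusted p = 0.887 in limma, lower in 3 of 3 knockout samples), and it stayed between -0.66 and -0.50 when any 1 array was left out. The unadjusted p was no longer under 0.05 without wildtype replicate 2 or with the replicate number as a block. Its relative Ndufa4l2, which hypoxia is known to induce, read 6.43, 6.4995 and 6.30 in wildtype and 6.27, 6.48 and 7.003 in knockout, not far above the median gene level. Knockout replicate 3 was the highest array, the other knockout arrays lay at or near the wildtype range, and the difference was 0.18 (SE 0.41).

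The core subunits carry the flavin and the iron-sulfur clusters, and 6 of them were measured. Ndufv1, which binds NADH and the flavin, read 11.06, 10.36 and 10.38 in wildtype and 10.62, 11.14 and 10.77 in knockout. The groups overlapped (difference 0.24, SE 0.31), and its 3 probe sets disagreed in direction. Those marked a and x in their names were at 0.25 and 0.24. The other, a plain probe set without such a letter, was at -0.47. Ndufv2, its partner with an iron-sulfur cluster, read 10.80, 10.35 and 10.58 in wildtype and 11.45, 10.73 and 10.80 in knockout, a difference of 0.42 (SE 0.30). Knockout replicate 1 was the highest of the 6 arrays for Ndufv2, and its 3 probe sets all had a difference above 0, from 0.11 to 0.42. Ndufs1, the large subunit with several clusters, varied most among the core genes within wildtype, at 9.40, 9.88 and 6.86, against 7.07, 7.85 and 9.31 in knockout. With 1 low wildtype array and 2 low knockout arrays its difference of -0.64 had an SE of 0.98, and it ranged from -1.56 without wildtype replicate 3 to -0.05 without wildtype replicate 2.

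The remaining core genes sit nearer the ubiquinone site. Ndufs7, which carries the last cluster before ubiquinone, read 12.43, 11.82 and 11.75 in wildtype and 12.09, 12.10 and 9.84 in knockout. The low value belonged to knockout replicate 3 alone: the difference was -0.66 (SE 0.62) over all arrays and 0.09 without that one. Its other bright probe set was also lowest in knockout replicate 3, at 7.49 against 8.08 to 8.99 in the other arrays. Ndufs3 read 10.20, 10.20 and 9.23 in wildtype and 9.87, 9.84 and 8.74 in knockout, a difference of -0.40 (SE 0.50). Wildtype replicate 3 and knockout replicate 3 were the low arrays, and the difference was -0.72 without the former and -0.02 without the latter. Ndufs8, a further iron-sulfur subunit, read 11.40, 11.41 and 11.02 in wildtype and 10.75, 11.70 and 11.72 in knockout, with a difference of 0.11 (SE 0.31). Its direction turned with the brightest plain probe set, to -0.34, while its probe set marked a was at 0.62. The difference lay at -0.02 when wildtype replicate 3 was left out, and at -0.04 and -0.05 when knockout replicates 2 and 3 were. Of the 6 core genes 3 lay below 0 and 3 above, with a median of -0.14.

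Accessory subunits surround the core; those of the matrix arm differed in both directions. Ndufa2, a small subunit with a thioredoxin-like fold, read 11.56, 11.59 and 11.56 in wildtype and 11.29, 11.36 and 11.53 in knockout. The groups were apart only because the wildtype values were so close together: the difference was -0.17 (SE 0.16, adjusted p = 0.887 in limma). Ndufa6, a member of the LYR family that binds the mitochondrial acyl carrier protein, read 9.02, 9.50 and 9.17 in wildtype and 9.60, 10.11 and 10.06 in knockout. All knockout arrays were higher, by 0.70 on average (SE 0.38, 95% interval -0.21 to 1.60, adjusted p = 0.887 in limma), and the difference lay between 0.59 and 0.86 with any 1 array left out. Ndufa9, related to short-chain dehydrogenases and placed where matrix and membrane arms meet, had the most negative difference of the members over all 6 arrays. It read 9.10, 8.49 and 10.09 in wildtype and 8.001, 8.04 and 9.02 in knockout, so that knockout replicate 3 lay within the wildtype range, and the difference was -0.87 (SE 0.60). It ranged from -1.24 without wildtype replicate 2 to -0.44 without wildtype replicate 3, where that of Ndufs1 was further below 0.

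Ndufs4, whose loss in mice gives a model of Leigh syndrome, had the widest spread of all members in knockout. It read 10.52, 8.66 and 9.94 in wildtype and 10.89, 9.01 and 6.84 in knockout, and knockout held both the highest and the lowest array. Its difference was -0.80 (SE 1.06) over all arrays and 0.24 without knockout replicate 3. The wide spread belonged to this probe set. Its other bright probe set read 9.31, 9.24 and 9.07 in wildtype and 8.91, 8.79 and 9.29 in knockout, a difference of -0.21 (SE 0.37). Knockout replicate 3 was the highest knockout array there. The other matrix arm genes were Ndufa5 at -0.38 and Ndufv3 at -0.32, and Ndufa7 at 0.17 and Ndufa12, a relative of the assembly factor Ndufaf2, at 0.18. Over the 8 genes of this group the median was -0.24, with 5 below 0.

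In the membrane arm near the matrix arm, 6 of 8 genes lay below 0, with a median of -0.22. The exception in size was Ndufa1, a small X-linked subunit needed for assembly of the complex. It read 9.58, 9.41 and 9.44 in wildtype and 11.07, 9.70 and 10.71 in knockout. Knockout replicate 2 lay just above the wildtype arrays, and replicates 1 and 3 lay more than 1 above them. The difference of 1.01 was the most positive of all members (SE 0.44, 95% interval -0.03 to 2.05, unadjusted p = 0.0546, adjusted p = 0.887 in limma, higher in 3 of 3 knockout samples); it ranged from 0.72 without knockout replicate 1 to 1.41 without knockout replicate 2. The others were Ndufa8 at -0.51, Ndufc1 and Ndufa3 at -0.47 each, Ndufs5 at -0.26, Ndufc2 at -0.19, Ndufa13, also known as the cell death gene Grim-19, at -0.15, and Ndufa10 at 0.18. Ndufc1 was level in 5 arrays, at 11.16 to 11.45, and lower in knockout replicate 3, at 9.99.

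In the far membrane arm 10 of 12 genes lay below 0, with a median of -0.21. Ndufb10, which has paired cysteines typical of proteins of the intermembrane space, read 10.05, 10.72 and 10.97 in wildtype and 9.93, 10.05 and 9.33 in knockout. Its highest knockout array and its lowest wildtype array were level to 2 decimals, and the difference was -0.81 (SE 0.39, 95% interval -1.73 to 0.12, adjusted p = 0.887 in limma). Ndufb9, another LYR protein, read 11.62, 11.86 and 11.63 in wildtype and 9.80, 11.11 and 11.99 in knockout, a difference of -0.74 (SE 0.52). In this probe set knockout replicate 1 was low and replicate 3 the highest of the 6 arrays. The other bright probe set of Ndufb9 read 9.68, 10.23 and 9.585 in wildtype and 10.13, 8.37 and 8.70 in knockout. There replicate 1 was the highest knockout array. Ndufb11, also X-linked, was at -0.43, with knockout replicate 3 at 11.31 and the other arrays at 12.20 to 12.77. Ndufab1, the acyl carrier protein that also serves mitochondrial fatty acid synthesis, read 9.75, 8.73 and 10.07 in wildtype and 9.85, 8.44 and 9.86 in knockout. Replicate 2 was the low array in both groups, and the difference was -0.14 (SE 0.59).

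The remaining far membrane arm genes lay between -0.41 (Ndufb2) and 0.75 (Ndufb4): Ndufb3 at -0.26, Ndufb8 at -0.22, Ndufb7 and Ndufb6 at -0.20 each, Ndufb5 at -0.14 and Ndufb1 at 0.10. Ndufb4 was the 1 member under the median gene level, at 2.66 to 4.71. A brighter probe set, shared by Ndufb4 and its copies Ndufb4b and Ndufb4c, read 10.81 ± 0.36 in wildtype and 10.82 ± 0.75 in knockout (SD, n = 3 each), so the own probe set of Ndufb4 speaks little for that gene. Without Ndufa4, Ndufa4l2 and Ndufb4, 33 genes remained, with 24 below 0 and a median of -0.22.

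**Figure D2:**
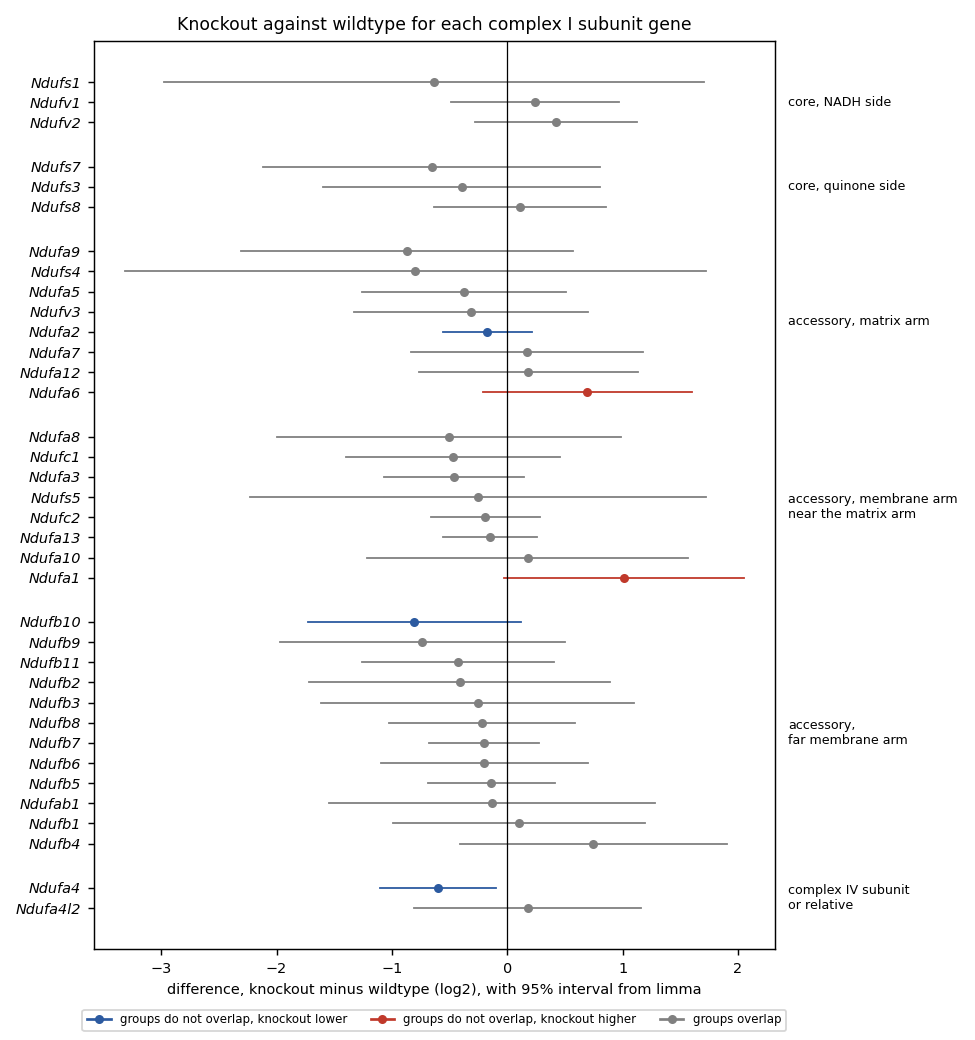
Difference between knockout and wildtype on the log2 scale (dot) with its 95% interval from limma (line) for the 36 complex I subunit genes, grouped by place in the complex. Coloured genes are those whose groups do not overlap; the interval of Ndufa4, -1.10 to -0.10, is the 1 interval that leaves out 0.

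Of the symbols that fit the rule, 8 occurred only on probe sets shared by several genes and are not among the 36. Ndufa11, a membrane arm subunit, with its copy Ndufa11b read 9.69, 9.74 and 9.71 in wildtype and 9.02, 10.09 and 9.68 in knockout in the brighter of 2 shared probe sets. Wildtype was level there, and knockout lay on both sides of it. Ndufs6, a zinc-binding subunit of the matrix arm, with its copy Ndufs6b read 10.13, 10.30 and 10.86 in wildtype and 10.28, 9.34 and 9.46 in knockout, so that knockout replicate 1 lay within the wildtype range and the other knockout arrays below it. The remaining symbols were Ndufb4b, Ndufb4c, Ndufab1-ps and Ndufs5-ps, which are copies of measured members.

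The spread of complex I genes was larger among knockout than among wildtype arrays, as it was for most genes of the array. The median SD of a member was 0.27 in wildtype and 0.57 in knockout, and 25 of 36 members (69.4%) had the larger SD in knockout, beside 60.8% of all genes. Over the genes above the median level, where 60.9% had the larger SD in knockout, the median SDs were 0.62 and 0.77. Knockout replicates 1 and 2 differed by a median of 0.36 per member. For wildtype the gaps of the 3 pairs were first averaged per member, and the median was 0.35. Over all genes these values were 0.44 and 0.47. A single gap and a mean of gaps are unlike measures, so the values are not strictly comparable. Knockout replicate 3 was the lowest of the 6 arrays for 12 members (33.3%), beside 14.8% of all genes and 24.3% of those above the median level. Knockout replicate 1 was the lowest for 11 members (30.6%), beside 16.1% and 17.8%. Knockout replicate 2 was the lowest for 4 members and each wildtype array for 1 to 5. More than 1 log2 unit below the wildtype mean were 7 members in knockout replicate 3, or 19.4%, where 24.1% of the genes above the median level were that low. Measured from the wildtype mean, the median member stood at -0.15, -0.10 and -0.09 in knockout replicates 1, 2 and 3, so the centres lay close together and the lower quartile reached furthest, to -0.72, in replicate 3. The neutrophil genes stood at 1.83, 1.34 and 4.75 in the same arrays; their part in these values was not tested.

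**Figure D3:**
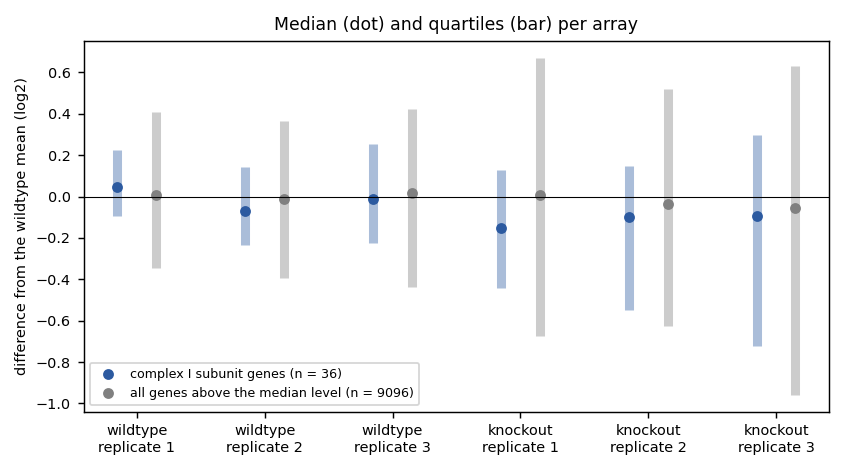
Median (dot) and quartiles (bar) of the difference from the wildtype mean, in log2 units, for the 36 complex I genes and for the 9096 genes above the median level, in each array. The median of the complex I genes lies between -0.15 and -0.09 in the knockout arrays; wildtype arrays are part of the mean they are measured from, which narrows their bars.

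Several probe sets of a gene often disagreed, which bounds how far a single difference can be read. Of the 36 genes 19 had at least 2 probe sets above the median gene level; the sign of the difference was shared within 11 of them and not within 8. The gap between probe sets was widest for Ndufa7, from -0.39 to 0.72 over 5 probe sets, then for Ndufs8, from -0.34 to 0.62 over 6, Ndufb6, from -1.09 to -0.20, and Ndufb7, from -0.20 to 0.66. It was narrow for Ndufb5 (-0.14 and -0.11), Ndufb9 (-0.77 and -0.74), Ndufs7 (-0.69 and -0.66) and Ndufa3 (-0.51 and -0.47). A narrow gap does not mean that the single arrays agreed. The bright probe sets shared their lowest array in 5 of the 19 genes, with Ndufs7 among them but not Ndufb5, Ndufb9 or Ndufa3. Over all 68 bright probe sets of complex I genes 45 had a difference below 0. Ndufa4, Ndufa2, Ndufa1, Ndufa6 and Ndufb10 had 1 probe set each. The probe sets that stood for 7 members, Ndufa2 among them, can by their design also bind transcripts of other genes.

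**Figure D4:**
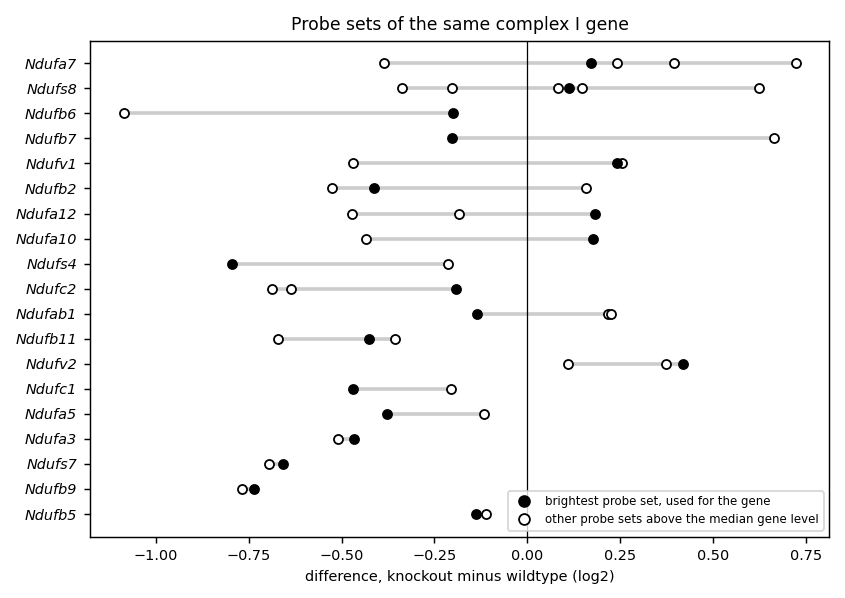
Difference between knockout and wildtype (log2) in each probe set above the median gene level, for the 19 complex I genes with at least 2 of them. Filled dots are the probe sets that stand for the gene; the line of Ndufa7 runs from -0.39 to 0.72 and crosses 0, and that of Ndufb5 is the shortest.

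The promoters of complex I genes are known to hold sites of the factors NRF1, GABP (of the ETS family) and YY1. The element AAGATGGC, a core of YY1 sites that is also known around the start codon of genes with very short leaders, was searched on both strands in RefSeq windows (GRCm38.p6) from 250 bases before to 50 after the start, which 32 of the 36 members have. It occurred in 6 of 32 members (18.8%), beside 588 of 14452 array genes with such a window (4.07%). The matches are shown because, of the 6 elements searched, this one had the highest share in members relative to array genes; capitals mark the element, in windows of 30 bases.

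Ndufa9: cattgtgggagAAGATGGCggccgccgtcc
Ndufs7: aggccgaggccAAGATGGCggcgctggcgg
Ndufs4: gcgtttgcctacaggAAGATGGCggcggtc
Ndufc1: gcctgcggaacAAGATGGCgccgtccgtag
Ndufa3: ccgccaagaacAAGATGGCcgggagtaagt
Ndufb8: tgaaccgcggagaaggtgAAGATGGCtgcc

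All 6 matches lay after the start on the gene's own strand, with their first base 23 to 39 bases from it. The windows are chr6:126849097-126849126 (minus strand) for Ndufa9, chr10:80249462-80249491 (plus) for Ndufs7, chr13:114388045-114388074 (minus) for Ndufs4, chr3:51408915-51408944 (minus) for Ndufc1, chr7:3617384-3617413 (plus) for Ndufa3 and chr19:44555393-44555422 (minus) for Ndufb8. In Ndufa9, Ndufs7 and Ndufs4 the element runs on into ATGGCGGC, a second form of a YY1 site that overlaps the first; it was found in 5 of 32 members (15.6%), the others being Ndufb5 and Ndufa7, and in 4.12% of array genes. All 6 members with AAGATGGC had a difference below 0, with a median of -0.56, against 16 of 26 members without it and a median of -0.17. Of the 6, Ndufs4 stood at 0.24, Ndufs7 at 0.093 and Ndufb8 at 0.0625 without knockout replicate 3. Over all array genes the medians were -0.04 with and 0.06 without the element. No test was made of these differences, and a match does not show binding. Yy1 itself read 10.56, 10.85 and 11.51 in wildtype and 10.78, 10.21 and 10.31 in knockout, a difference of -0.54 (SE 0.34).

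The other elements differed less between members and array genes, or were rarer in members. The NRF1 core GCGCATGC was found in 2 of 32 members, Ndufa8 and Ndufa6 (6.25%, beside 4.68%), whose differences were -0.51 and 0.70. The ETS core CCGGAAG was found in 4, Ndufs3, Ndufb6, Ndufb7 and Ndufs8 (12.5%, beside 14.98%), CCAAT in 9 (28.1%, beside 42.0%) and TATAAA in 4 (12.5%, beside 11.5%). Of the regulators, Nrf1 read 7.53 ± 1.27 in wildtype and 7.73 ± 0.59 in knockout, and Gabpa, the DNA-binding subunit of GABP, 9.13 ± 0.69 and 7.77 ± 1.24 (SD, n = 3 each). Tfb2m, a mitochondrial transcription factor, had the smallest unadjusted p of the 12 regulators, with 7.44, 9.14 and 8.31 in wildtype and 7.20, 6.86 and 5.55 in knockout. Its knockout arrays all lay under its wildtype arrays (difference -1.76, SE 0.70, adjusted p = 0.887 in limma).

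The genes that assemble complex I showed larger differences than its subunits in a few cases, and 0 of 18 assembly factors passed the adjusted threshold in limma. Their median was -0.46, with 12 below 0, beside 43.4% of all genes and 52.9% of those above the median level. In limma 2 had a p under 0.05 before adjustment, both lower in knockout. Such a p, in either direction, was found for 4.84% of all genes. Ndufaf2, which helps attach the matrix arm and is replaced by Ndufa12, read 10.85, 11.10 and 10.40 in wildtype and 7.44, 8.70 and 8.71 in knockout. All knockout arrays lay below all wildtype arrays (difference -2.50, SE 0.50, adjusted p = 0.88 in limma). Ndufaf8, the partner of the assembly factor Ndufaf5, read 11.00, 10.17 and 10.61 in wildtype and 8.33, 8.71 and 9.27 in knockout, a difference of -1.83 (SE 0.43). Whether assembly factors and subunits differ from each other was not tested.

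The genes of the other respiratory complexes differed in both directions, with more below 0 than above. Of 39 genes of complexes II to V, 28 lay below 0 (71.8%) with a median of -0.25, and 0 passed the adjusted threshold. Over all genes 43.4% lay below 0, and 52.9% over those above the median level. At an unadjusted p under 0.05 in limma there were 4 lower and 1 higher, beside 4.84% of all genes in either direction. Without overlap 8 were lower and 1 higher, beside 4.25% and 6.67% of all genes, and 6.3% and 4.89% of those above the median level. Complex II had a median of -0.43 over 4 genes, complex III of -0.39 over 9, complex IV of -0.09 over 10 and complex V of -0.33 over 16. The 4 genes lower at that unadjusted p were Uqcr10 (difference -0.97) and Uqcrh (-1.54) of complex III, Cox5b (-0.22) of complex IV and Atp5g1 (-0.86). Atp5g1 forms part of the rotor ring of ATP synthase. The higher one was Cox7c of complex IV, at 4.72, 4.98 and 4.95 in wildtype and 7.70, 7.57 and 8.31 in knockout. Its adjusted p was 0.438 in limma, and its wildtype values lay under the median gene level of 5.81. Its probe set, marked s, can by design also bind transcripts of other genes. Mitochondrial import genes had a median of -0.21 over 14 genes, with Timm8b at -1.46. In complex IV 5 of 10 genes lay below 0, and its mean of 0.21 had the opposite sign to its median. Whether these lists differ from complex I was not tested.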

How the data were processed

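RNA of 6 samples was measured on 6 arrays. The authors deposited log2 values per probe set; per the submitters' processing notes the tools included Partek, RMA and the Expression Console of Affymetrix, with no version or setting. RMA summarises probes and normalizes arrays, which compresses differences of dim probe sets. Of 45037 probe sets 34945 named 1 gene in the platform annotation and were used; of these 34741 matched RefSeq by Entrez number. Knockout and wildtype, grouped by title, were compared over 18193 genes with limma 3.58.1 in R 4.3.3 (lmFit, eBayes with trend, no filter on level, Benjamini-Hochberg adjustment over all genes, threshold 0.05). Standard errors and 95% intervals are limma's moderated ones. The fit was tested on simulated data. Named genes are those without overlap, core subunits, Ndufa4, Ndufa4l2, Ndufab1, the most extreme differences, probe sets that disagree most, and up to 2 genes per other list; further members are given by difference. Members and lists were chosen with earlier results of these data known. Other genes of the text, among them Ndufs4, Ndufb9 and the regulators Yy1, Nrf1 and Gabpa, and the promoter motifs were chosen after values were seen. The number of arrays limits precision; the median SE of a member was 0.41. Tables were made with pandas 2.3.3 and numpy 2.4.6 under Python 3.11.15, and plots with matplotlib 3.10.9.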

Additional observations from a re-analysis of the deposited data

How the results depend on the processing

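With 3 arrays a group, no alternative brought a complex I gene past the adjusted threshold, and the median stayed below 0 in all of them. Over all genes, 0 passed except 1 with the mean of probe sets, a gene outside complex I. Members at an unadjusted p under 0.05 numbered 3 without the variance trend (4.95% of all genes), 2 with the mean of probe sets, quantile normalization or median centring (4.97%, 4.88% and 5.22%), 0 without Ndufa4, Ndufa4l2 and Ndufb4 (chosen after seeing the data), 0 with the replicate block (4.61%), and 0 to 3 with 1 array left out (3.79% to 6.62% of all genes; 0 without wildtype replicate 2, 3 without knockout replicate 1 or 3). The replicate block left 0 genes past the threshold. Same-numbered arrays did not deviate together (correlations -0.024, -0.009 and -0.011), and differently numbered ones lay between -0.023 and 0.035. The labels name no pairing, and these values cannot settle whether the numbers stand for one. Members lower without overlap numbered 5 with the mean of probe sets (4.4% of all genes). They numbered 1 with plain probe sets only, quantile normalization or median centring (4.13%, 4.72% and 3.74%). With 1 array left out they numbered 4 to 8 (7.62% to 10.0% of all genes). There were 7 without wildtype replicate 2 or 3, and 5 and 8 without knockout replicates 1 and 3. Members higher without overlap numbered 1 with plain probe sets only (6.62% of all genes). The 1 probe set of Ndufa1 is marked a, so this gene was not in that setting. With 1 array left out, those higher numbered 2 to 4 (10.5% to 16.1%), being 4 without wildtype or knockout replicate 1. Of 206 values of 14 named genes under 15 alternatives 197 kept their direction, but part of these could not turn. Without the variance trend, with robust moderation and over the genes above the median level, each difference is that of the main fit. So it is with the replicate block, and with the mean of probe sets where a gene has only 1. The 9 values that turned were as follows. With plain probe sets only, Ndufs8 was at -0.34 and Ndufv1 at -0.47. Without wildtype replicate 3, Ndufab1 was at 0.14 and Ndufs8 at -0.02. Without knockout replicate 2, Ndufab1 was at 0.33 and Ndufs8 at -0.04. Without knockout replicate 3, Ndufa4l2 was at -0.029, Ndufs7 at 0.093 and Ndufs8 at -0.053. With 1 array left out, Ndufa4l2 ranged from -0.029 to 0.34, Ndufab1 from -0.53 to 0.33, Ndufs7 from -1.04 to 0.093 and Ndufs8 from -0.053 to 0.43. The cause was not tested. Over all 36 members, 21 kept their direction with each array left out in turn.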
